A study of Mus musculus with 6 samples.

Results

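The genes described here encode the chaperones that fold proteins in the endoplasmic reticulum (ER), their helpers, and the sensors of the unfolded protein response (UPR) with the proteases that act on them. The list held 37 genes, chosen by name, among 22180 genes with a symbol of their own on the array. Of these, 35 were measured, by 36 probe sets. Fkbp10 was not analysed here, and neither was Sdf2, whose probe set also carries the name of another gene.

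RNA came from pancreatic islets of C57BL/6J mice aged 5 weeks, cultured overnight after isolation, and was measured on 6 Affymetrix arrays. The Sel1L-deficient group (3 arrays) carried floxed Sel1L alleles and a Cre recombinase inserted at the Ins1 locus, so that Sel1L was deleted in β cells. The wildtype group (3 arrays) consisted of littermates that carried the same floxed alleles without Cre. Deletion therefore cannot be told apart from the presence of Cre or of the altered Ins1 allele. The labels do not state whether islets were pooled or whether replicates came from separate animals, so the p-values rest on the spread among these arrays, which may be technical. Values are RMA summaries treated as log2, and a difference is always Sel1L-deficient minus wildtype on that scale.

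The ER folds secreted proteins with the help of BiP, an Hsp70-type chaperone whose ATP cycle is set by J-domain proteins and nucleotide exchange factors, and with the lectins calnexin and calreticulin, which hold glycoproteins. Misfolded protein is sensed by IRE1α, PERK and ATF6. IRE1α splices Xbp1 mRNA, PERK phosphorylates a translation initiation factor, and ATF6 is cut by Golgi proteases to free a transcription factor, and these branches raise many chaperone genes. β cells make proinsulin in large amounts and depend on this machinery, while SEL1L serves the disposal of misfolded ER proteins together with the ubiquitin ligase HRD1. The arrays measured total transcript of each gene, not Xbp1 splicing, phosphorylation or cleavage.

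Sel1l, the deleted gene, read 7.73, 7.65 and 7.68 on the Sel1L-deficient arrays, against 8.46, 8.56 and 8.76 on the wildtype arrays, a difference of -0.90 ± 0.11 (SE; limma adjusted p = 0.0312). The labels give female for every sample, yet replicate 3 of each genotype had Xist at 3.08 (Sel1L-deficient) and 2.93 (wildtype), against 9.93 to 10.4 on the other 4 arrays. The insulin gene Ins2 was bright on every array, at 10.45 to 10.85 in Sel1L-deficient and 11.02 to 11.21 in wildtype islets. Of 9 β-cell markers 8 were measured, and all 8 were lower in Sel1L-deficient islets with no overlap between groups, 4 of them past an adjusted p of 0.05 (over all genes, 7.84% were lower with no overlap and 0.153% passed as lower). Their summed linear level was 6682 to 6948 in Sel1L-deficient and 9411 to 11130 in wildtype islets. The α-cell markers, 3 of 5 measured, summed to 9982 to 10480 in Sel1L-deficient and 9453 to 9761 in wildtype islets, sums that did not overlap although each of the 3 genes did. The sums overlapped for δ-cell markers (4 of 4 measured), at 5957 to 6279 in Sel1L-deficient and 6014 to 6507 in wildtype islets. Ppy of PP cells overlapped too, at 4572 to 5017 in Sel1L-deficient and 3902 to 4634 in wildtype islets. Linear sums weigh the brightest genes most. Over all arrays Gcg read 12.55 to 12.69, Sst 12.43 to 12.58 and Ppy 11.93 to 12.29. These values lie near the top of a scale that ended at 13.0, where RMA differences can be compressed. Duct markers, 3 of 4 measured, were low, at 19.0 to 34.4 in Sel1L-deficient and 25.4 to 35.3 in wildtype islets. Of the acinar markers, enzymes of the exocrine pancreas, 4 of 7 were measured, and their summed level ran from 1841 to 6645 in Sel1L-deficient islets and from 3066 to 7253 in wildtype islets, highest on both arrays of replicate 3. Endothelial markers summed to 1281 to 1457 in Sel1L-deficient and 872 to 1167 in wildtype islets (7 of 7 measured). Mesenchymal markers summed to 429 to 483 in Sel1L-deficient and 276 to 379 in wildtype islets (8 of 8 measured). Both sums were higher in Sel1L-deficient islets with no overlap. So were 4 of 7 endothelial and 2 of 8 mesenchymal genes taken singly, where 7.22% of all genes were, and none passed an adjusted p of 0.05. The median differences of both lists were 0.44. Leukocyte markers summed to 177 to 203 in Sel1L-deficient and 189 to 239 in wildtype islets (7 of 7 measured), with Cd3e below 2 on every array, under the array medians of 3.08 to 3.16. All these cell types also use ER chaperones, and their part in the results below was not tested. In whole islets fewer cells of a type and less RNA per cell cannot be told apart.

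None of the ER chaperone and UPR sensor genes passed the threshold between genotypes. In limma's test with Benjamini-Hochberg adjustment over all genes, 0 of 35 had an adjusted p under 0.05, where 0.243% of all genes did (54 of 22180, 0.0902% higher and 0.153% lower). The lowest adjusted p was 0.174, for Atf6b. At an unadjusted p under 0.05 the count was 9 of 35 (25.7%), 6 higher and 3 lower in Sel1L-deficient islets, where 9.48% of all genes (4.45% higher, 5.04% lower) and 13.1% of the genes above the median level reached it. The 9 were Ern1, Atf6b, Dnajc3, Dnajc1, Uggt2, Creld2, Nucb2, Fkbp9 and Fkbp11. With an intensity trend in limma's prior, Nucb2 alone of the 35 passed the threshold (adjusted p = 0.0329 in that fit). Without replicate 3 of both genotypes, the arrays that went against the labelled sex, the differences were 0.57 for Ern1, -0.55 for Atf6b, 0.37 for Dnajc3, 0.37 for Creld2, 0.40 for Nucb2 and -0.39 for Fkbp9. In the same fit Fkbp11 differed by -0.59, Dnajc1 by 0.35 and Uggt2 by 0.31.

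The 35 differences ran both ways, 18 above 0 and 17 below, from -0.54 to 0.42, with a median of 0.02 where the median over all genes was 0.00. Their typical size was larger than this median, since the median absolute difference was 0.139, against 0.121 for genes above the median level and 0.112 for all genes. The members also varied little between replicates, with a median pooled SD of 0.112, against 0.146 among genes above the median level. The values of the 3 Sel1L-deficient arrays lay wholly above or below those of the 3 wildtype arrays for 12 of 35 members (7 above, 5 below), where 15.1% of all genes (7.22% above, 7.84% below) and 19.8% of those above the median level did so.

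The 95% intervals, each taken alone, bounded the size of the differences on the RMA scale. The interval of the difference lay inside a 2-fold change either way for all 35 members, as for 97.7% of all genes, and inside a 1.5-fold change for 26 of 35, as for 79.3% of all genes. The 9 members whose interval reached past 1.5-fold were Ern1, Atf6b, Creld2, Nucb2, Dnajc3, Uggt2, Fkbp9, Fkbp11 and Fkbp14.

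**Figure D1:**
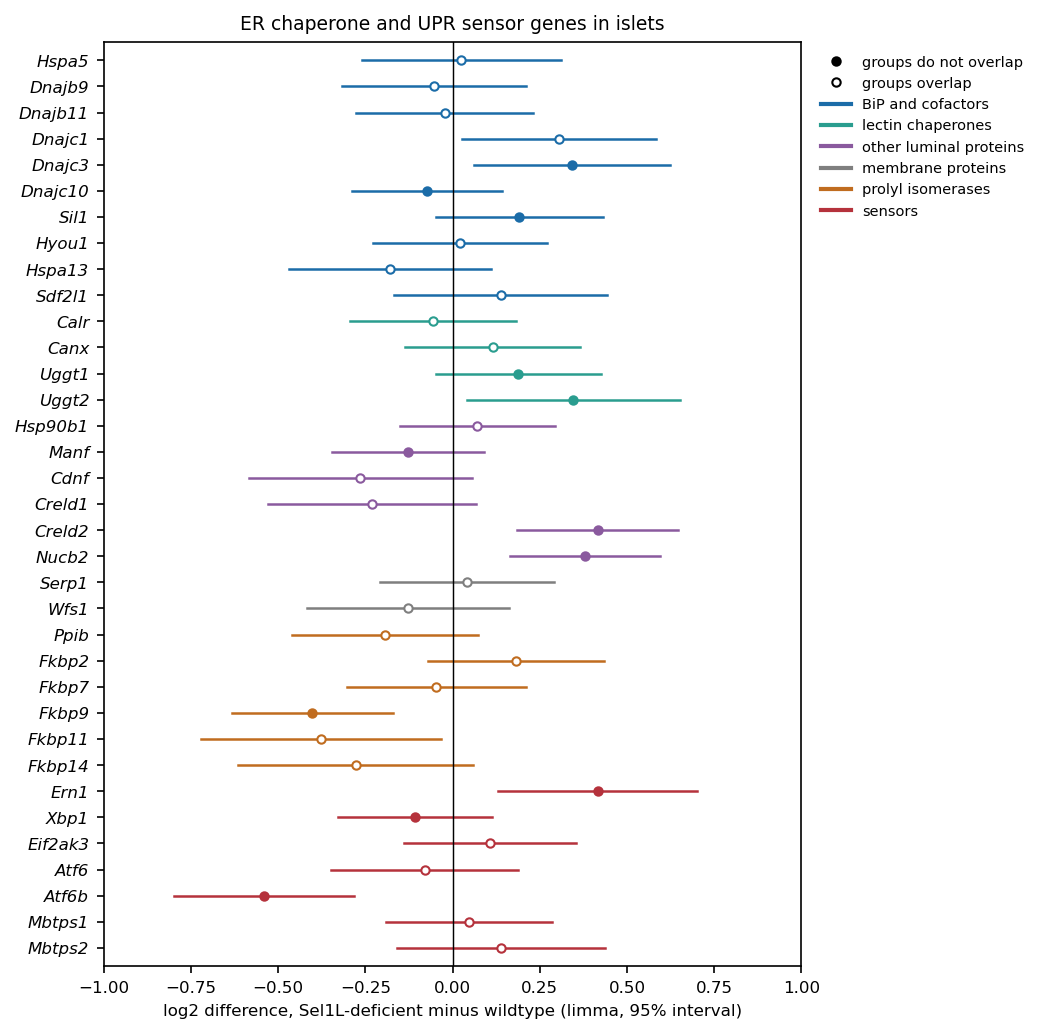
Differences between genotypes for the 35 measured genes, grouped by role, as points on a log2 axis with 95% intervals from limma (n = 3 arrays per genotype). Filled points mark genes whose groups did not overlap. Most intervals cross 0, and Atf6b at -0.54 and Creld2 at 0.42 lie farthest from it on either side.

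Among the sensors, Ern1 and Atf6b stood apart from the others in opposite directions. Ern1, which encodes the kinase and nuclease IRE1α, read 8.78, 8.82 and 8.56 on the Sel1L-deficient arrays, against 8.15, 8.31 and 8.46 on the wildtype arrays. Every Sel1L-deficient array was above every wildtype array, though replicate 3 of the 2 genotypes lay only 0.103 apart. The means were 8.72 ± 0.14 and 8.31 ± 0.15 (SD, n = 3 each), a difference of 0.42 ± 0.12 (SE; limma adjusted p = 0.342), or 1.33-fold, and the 95% interval ran from 0.13 to 0.70.

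Xbp1, the transcription factor gene whose mRNA IRE1α splices, was close to level between the genotypes. It read 8.55, 8.46 and 8.50 in Sel1L-deficient islets, against 8.55, 8.63 and 8.66 in wildtype islets. The groups just failed to overlap, by 0.00239 between replicate 1 of each. The difference was -0.11 ± 0.10 (SE; limma adjusted p = 0.798), and its interval reached from -0.33 to 0.11.

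Eif2ak3, which encodes the kinase PERK, read 7.80, 7.60 and 7.58 in Sel1L-deficient islets, against 7.48, 7.59 and 7.59 in wildtype islets. Sel1L-deficient replicate 1 was high and the other 5 arrays read 7.48 to 7.60, so the groups overlapped. The difference was 0.11 (interval -0.14 to 0.35, limma adjusted p = 0.827), and 0.04 without that high array.

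Atf6 and its relative Atf6b, both membrane-bound transcription factors cut in the Golgi, gave different pictures. Atf6 read 8.86, 8.65 and 8.60 in Sel1L-deficient islets, against 8.79, 8.67 and 8.89 in wildtype islets, overlapping groups with a difference of -0.08 (interval -0.35 to 0.19, limma adjusted p = 0.884). Atf6b read 6.11, 6.22 and 6.07 in Sel1L-deficient islets, against 6.60, 6.83 and 6.59 in wildtype islets. The highest Sel1L-deficient value lay 0.371 below the lowest wildtype value. The group means of Atf6b were 6.13 ± 0.08 and 6.67 ± 0.14 (SD, n = 3 each), and the difference of -0.54 ± 0.11 (SE), 1.46-fold lower, had the lowest p of all members (0.00117 before and 0.174 after adjustment, limma). The interval ran from -0.80 to -0.28, and leaving out 1 array gave -0.58 to -0.46.

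Mbtps1 and Mbtps2, which encode the Golgi proteases that release ATF6, differed by 0.05 and 0.14, with overlapping groups. Mbtps2 was highest in Sel1L-deficient replicate 1, at 6.36, where the other 5 arrays read 5.87 to 6.09, and its difference was 0.03 without that array.

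**Figure D2:**
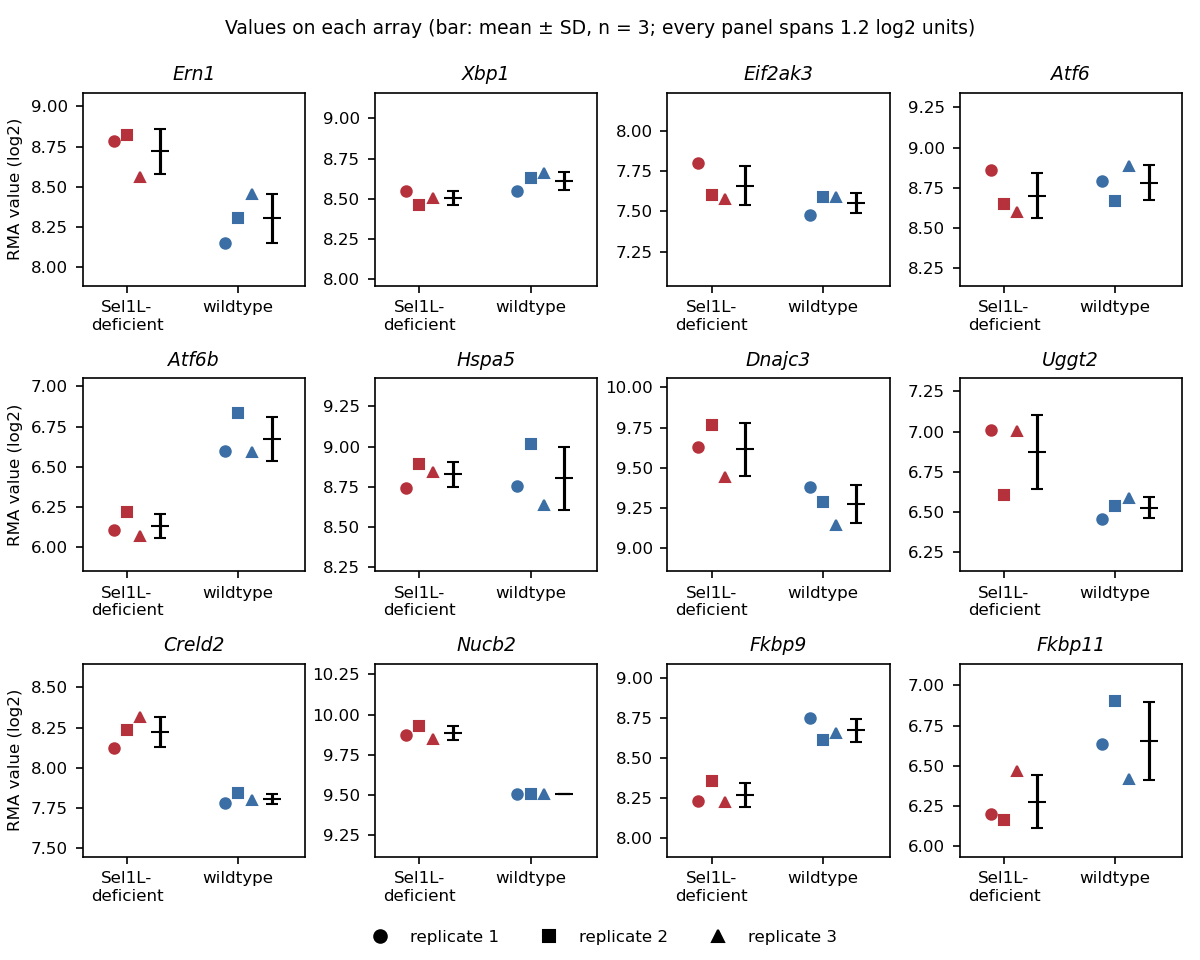
RMA values (log2) of 12 genes on every array, Sel1L-deficient left and wildtype right, with the mean and SD of 3 arrays beside the points and the replicate number as the symbol. All panels span 1.2 log2 units. Atf6b, Creld2, Nucb2 and Fkbp9 separate the groups by more than the spread within each, Hspa5, Eif2ak3 and Atf6 overlap, and Xbp1 nearly does.

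Neither BiP nor any of its measured helpers passed the test, and their differences lay between -0.18 and 0.34. Hspa5, the BiP gene, read 8.74, 8.89 and 8.84 in Sel1L-deficient islets, against 8.76, 9.02 and 8.64 in wildtype islets. The wildtype arrays held both the highest and the lowest value, so the groups overlapped fully. The difference was 0.02 ± 0.12 (SE; limma adjusted p = 0.974), and the interval of -0.26 to 0.31 corresponds to 0.834-fold to 1.24-fold. Without wildtype replicate 2 the difference was 0.13 and without wildtype replicate 3 it was -0.06.

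The J-domain proteins, which deliver clients to BiP and start its ATP cycle, divided into a pair with higher values and a trio near 0. Dnajc3, which encodes a luminal J-domain protein also known to bind PERK, read 9.63, 9.77 and 9.44 in Sel1L-deficient islets, against 9.38, 9.29 and 9.15 in wildtype islets. Its groups did not overlap, and the difference was 0.34 ± 0.12 (SE; limma adjusted p = 0.422). Dnajc1, a membrane-bound J-domain protein, read 7.16, 7.24 and 6.93 in Sel1L-deficient islets, against 6.94, 6.76 and 6.72 in wildtype islets. Here the lowest Sel1L-deficient array fell just under the highest wildtype array, with a difference of 0.31 ± 0.12 (SE; limma adjusted p = 0.478). Dnajb9 and Dnajb11, whose products bind misfolded clients, differed by -0.05 and -0.02, and Dnajc10, an ER reductase with a J domain, by -0.07. All 3 Sel1L-deficient values of Dnajc10 (8.40 to 8.46) lay below the wildtype values (8.47 to 8.51), a separation of 0.014.

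Of the nucleotide exchange factors, which free BiP from ADP, Sil1 was higher on every Sel1L-deficient array, at 7.48 to 7.61, against 7.25 to 7.42 in wildtype islets (difference 0.19, interval -0.05 to 0.43). Hyou1 overlapped, with a difference of 0.02 and an interval of -0.23 to 0.27. Hspa13, an Hsp70 relative of the ER, differed by -0.18 and Sdf2l1, a partner of Dnajb11 in holding clients soluble, by 0.14, both with overlapping groups. The difference of Hspa13 was -0.10 without Sel1L-deficient replicate 1 and -0.08 without wildtype replicate 2. Sdf2l1 was highest in Sel1L-deficient replicate 3 (7.86) and lowest in wildtype replicate 3 (7.34), and the difference was -0.05 with replicates 1 and 2 of each group only.

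In the calnexin cycle the lectins overlapped while both glucosyltransferase genes were higher on every Sel1L-deficient array. Uggt1 and Uggt2 encode the enzymes that tag incompletely folded glycoproteins for another round of lectin binding. Uggt2 read 7.01, 6.61 and 7.01 in Sel1L-deficient islets, against 6.46, 6.54 and 6.59 in wildtype islets. Replicate 2 of the Sel1L-deficient islets lay only 0.0206 above the highest wildtype array, well under the other 2. The difference was 0.35 ± 0.13 (SE; limma adjusted p = 0.456), and 0.48 without that array. Uggt1 read 8.47 to 8.67 in Sel1L-deficient islets, against 8.33 to 8.43 in wildtype islets, a difference of 0.19 (interval -0.05 to 0.42). The calnexin gene Canx differed by 0.11 and the calreticulin gene Calr by -0.06 (limma adjusted p = 0.814 and 0.912). That of Canx was 0.07 without Sel1L-deficient replicate 2 and 0.19 without replicate 3, and that of Calr was -0.01 without Sel1L-deficient replicate 3 or wildtype replicate 2. The group means of Canx and Calr lay above 10 on a scale that ended at 13.0. RMA differences can be compressed near the top of a scale, and whether they were at this level was not tested. Among the β-cell markers with wildtype means above 10, Slc2a2 differed by -1.38, G6pc2 by -0.91, Ins2 by -0.50 and Iapp by -0.09.

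Among the other luminal proteins, Creld2 and Nucb2 were the 2 members with the clearest separation upward. Creld2, an ER-stress-induced protein with thiol chemistry like that of a disulfide isomerase, read 8.13, 8.23 and 8.32 in Sel1L-deficient islets, against 7.78, 7.84 and 7.80 in wildtype islets. The gap between the groups was 0.285, wider than the range within either. The means were 8.22 ± 0.10 and 7.81 ± 0.03 (SD, n = 3 each), a difference of 0.42 ± 0.10 (SE; limma adjusted p = 0.238), or 1.34-fold.

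Nucb2 encodes nucleobindin, a calcium-binding protein of the secretory pathway and the precursor of the nesfatin peptide. It read 9.88, 9.93 and 9.85 in Sel1L-deficient islets, against 9.50, 9.51 and 9.51 in wildtype islets, where the 3 arrays spanned 0.00397. The difference was 0.38 ± 0.09 (SE; limma adjusted p = 0.246), or 1.30-fold, with an interval of 0.16 to 0.60, and leaving out 1 array gave 0.36 to 0.40. The SE came from limma's moderated spread, which draws the small SD of 0.0416 in Sel1L-deficient and 0.00198 in wildtype islets toward that of all genes.

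Hsp90b1, which encodes the ER form of Hsp90, differed by 0.07 (interval -0.15 to 0.29). Its means were 11.01 in Sel1L-deficient and 10.94 in wildtype islets. Manf, a secreted ER-stress protein known to sustain β cells in mice, was slightly lower on every Sel1L-deficient array, at 5.06 to 5.15, against 5.20 to 5.26 in wildtype islets (difference -0.13, interval -0.35 to 0.09). Its relative Cdnf, the 1 measured member below the median level of all genes, differed by -0.26 with overlapping groups, and Creld1 by -0.23. Cdnf was at -0.13 without Sel1L-deficient replicate 2, and Creld1 at -0.14 without wildtype replicate 1.

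The prolyl isomerases, which turn the peptide bond before proline during folding, were the role with the most differences below 0. These were 5 of 6 measured, with a median over the 6 of -0.24. Over all genes 11066 of 22180 differed below 0, as did 6076 of the 11090 above the median level. The role was not tested as a set. Fkbp9 was lower on every Sel1L-deficient array, with 8.23, 8.36 and 8.22, against 8.75, 8.61 and 8.66 in wildtype islets. The difference was -0.40 ± 0.10 (SE; limma adjusted p = 0.252), or 1.32-fold lower. A second and dimmer probe set of Fkbp9 overlapped between groups and differed by -0.12 (interval -0.45 to 0.20), so that the 2 probe sets of this gene disagreed in size. Fkbp11, an isomerase of secretory tissues, read 6.20, 6.16 and 6.47 in Sel1L-deficient islets, against 6.64, 6.91 and 6.42 in wildtype islets. Replicate 3 of the 2 genotypes crossed over, and the difference was -0.38 ± 0.15 (SE; limma adjusted p = 0.478), with -0.25 without wildtype replicate 2 and -0.49 without wildtype replicate 3. Fkbp14 differed by -0.28, Ppib, the cyclophilin of the ER, by -0.19, Fkbp7 by -0.05 and Fkbp2 by 0.18, all with overlapping groups. The difference of Fkbp14 was -0.14 without Sel1L-deficient replicate 2 and -0.41 without Sel1L-deficient replicate 1. That of Ppib was -0.10 without wildtype replicate 1.

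The membrane proteins of the list overlapped. Wfs1, which encodes wolframin, the ER protein mutated in Wolfram syndrome with diabetes, read 8.20, 8.18 and 7.84 in Sel1L-deficient islets, against 8.24, 8.12 and 8.25 in wildtype islets. A single low array, Sel1L-deficient replicate 3, carried the difference of -0.13 (interval -0.42 to 0.16), which was -0.01 without it. Serp1, a small protein at the translocon that is made under ER stress, differed by 0.04 (interval -0.21 to 0.29).

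Related genes could be set side by side for their differences, although levels of different probe sets cannot be compared. Creld2 differed by 0.42 and Creld1 by -0.23, Atf6b by -0.54 and Atf6 by -0.08, Uggt2 by 0.35 and Uggt1 by 0.19, Cdnf by -0.26 and Manf by -0.13. Hspa13 differed by -0.18 and Hspa5 by 0.02. Whether the members of a pair differed from each other was not tested.

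Wildtype replicate 2 held the highest value of 9 of 35 members (25.7%), more than any other array. It was highest for 14.7% of all genes and for 10.1% of genes above the median level. The 9 members were Hspa5, Dnajb9, Dnajb11, Dnajc10, Hyou1, Hspa13, Calr, Fkbp11 and Atf6b, of which 6 belong to BiP and its helpers. The median deviation of the 35 members from their own means was 0.02, 0.03 and -0.03 on Sel1L-deficient replicates 1, 2 and 3, against 0.00, 0.05 and -0.03 on the wildtype arrays, so the groups overlapped. Acinar markers were low on that wildtype array and high on both arrays of replicate 3. Their median deviation was -1.06, -1.29 and 1.35 on the Sel1L-deficient arrays and 0.23, -0.60 and 1.41 on the wildtype arrays.

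**Figure D3:**
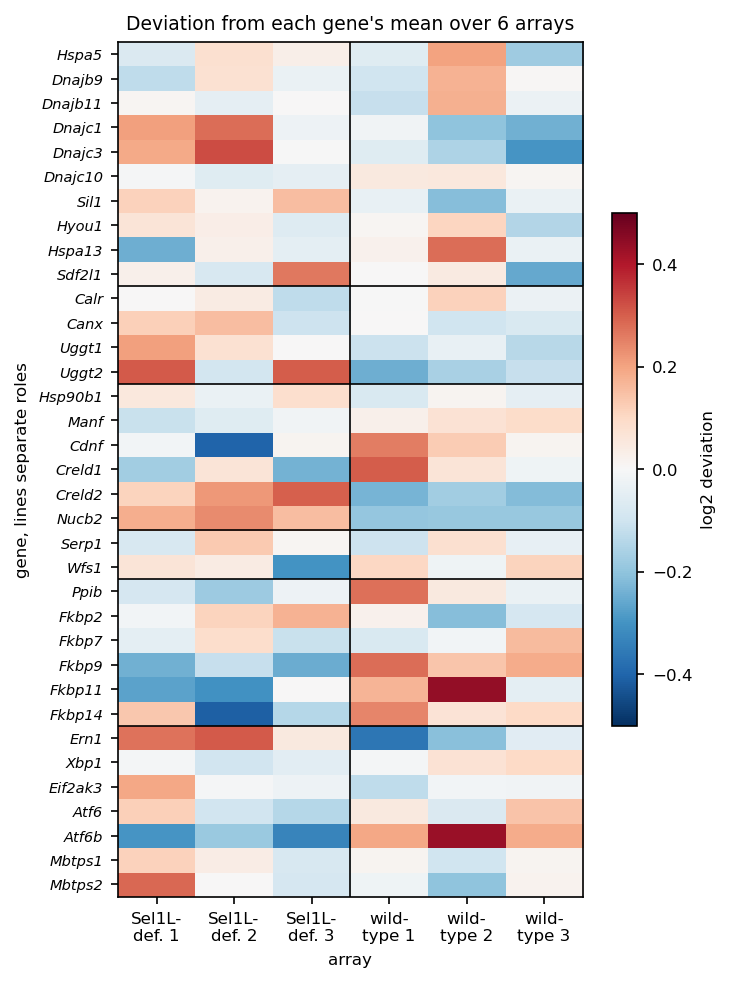
Deviation of each of 35 genes (rows, in role order) from its own mean over 6 arrays, in log2 units, with the 3 Sel1L-deficient arrays left of the 3 wildtype arrays. Red is above the mean and blue below. The Creld2, Nucb2, Ern1, Fkbp9 and Atf6b rows change colour at the genotype line, while the Hspa5, Dnajb9 and Dnajb11 rows are reddest in wildtype replicate 2.

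The promoters of several members hold the ER stress response element (ERSE), the DNA sequence that ATF6 with NF-Y and spliced XBP1 are known to bind. RefSeq promoter windows of build GRCm38.p6, 250 bases before to 50 after each start, were found for 30 of the 35 measured members and searched on both strands. The search for ERSE took only exact CCAAT and CCACG with any 9 bases between them, so near matches were not counted. It matched windows of 6 of these 30 members and of 0.137% of all genes with a window (37 of 27025). The shorter ERSE-II, ATTGG and CCACG with any 1 base between, was found for Dnajb11 alone of the members, just after the start, and in 0.0444% of all genes. The UPRE letters TGACGTGG were found in no member's window and in 0.714% of all genes. No site of one motif overlapped a site of another in these windows. The ERSE sites are shown because the same element stands before members with different readings. Each is written 5′ to 3′ on the strand that reads CCAAT first, with the letters fixed by the search in capitals.
Creld2 (chr15:88819520-88819538): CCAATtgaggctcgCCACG
Dnajc3 (chr14:118937827-118937845): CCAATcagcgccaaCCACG
Hspa5 (chr2:34772025-34772043): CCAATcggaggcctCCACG
Hsp90b1, site nearer the start (chr10:86705533-86705551): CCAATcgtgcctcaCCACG
Hsp90b1, site farther from the start (chr10:86705638-86705656): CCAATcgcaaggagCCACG
Calr (chr8:84847075-84847093): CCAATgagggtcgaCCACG
Canx (chr11:50325800-50325818): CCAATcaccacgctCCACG

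The members with these sites did not move as one. Creld2 differed by 0.42, Dnajc3 by 0.34, Canx by 0.11, Hsp90b1 by 0.07, Hspa5 by 0.02 and Calr by -0.06, and none passed the threshold. Their median was 0.09, against -0.05 over the 23 members whose windows held no exact match to any of the 3 motifs. The 250 bases upstream of the start are given for Creld2, the ERSE member with the largest difference, and for Hspa5, whose difference was near 0. They are written on the gene's own strand with the exact ERSE match in capitals, and near matches are not marked. In Creld2 the exact match runs on the opposite strand and ends 107 bases before the start. In Hspa5 the exact match runs on the same strand and ends 46 bases before the start.
Creld2 (chr15:88819396-88819645): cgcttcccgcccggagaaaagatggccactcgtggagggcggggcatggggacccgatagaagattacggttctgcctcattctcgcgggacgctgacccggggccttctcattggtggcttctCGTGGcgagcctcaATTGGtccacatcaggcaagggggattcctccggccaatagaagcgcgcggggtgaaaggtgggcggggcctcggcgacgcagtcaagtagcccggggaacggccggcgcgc
Hspa5 (chr2:34771840-34772089): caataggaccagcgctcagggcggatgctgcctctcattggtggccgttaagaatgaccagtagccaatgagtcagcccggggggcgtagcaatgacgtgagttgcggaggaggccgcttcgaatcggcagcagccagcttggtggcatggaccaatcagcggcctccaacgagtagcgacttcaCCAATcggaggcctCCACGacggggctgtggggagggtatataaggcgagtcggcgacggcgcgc

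The rest of the pathway held genes that passed the test. Of 36 other UPR and ER genes listed, 34 were measured, and 2 rose and 2 fell, 1 of the falls being Sel1l itself. That made 4 of 34, where 0.243% of all genes passed. The list was chosen with earlier results of these data known, so this share is no test of the pathway. The median difference of the 34 genes was 0.04. Kdelr3, a receptor that returns escaped ER proteins, rose 2.17-fold, with 6.50, 6.49 and 6.56 in Sel1L-deficient islets, against 5.52, 5.26 and 5.42 in wildtype islets (limma adjusted p = 0.013). Derl3, a derlin of ER-associated degradation, rose 3.42-fold, with 5.91, 6.26 and 6.50 in Sel1L-deficient islets, against 4.26, 5.01 and 4.08 in wildtype islets (limma adjusted p = 0.041). Ero1b, which encodes an oxidase that renews disulfide isomerases in β cells, fell 1.89-fold, with 9.47, 9.47 and 9.70 in Sel1L-deficient islets, against 10.60, 10.26 and 10.53 in wildtype islets (limma adjusted p = 0.0428).

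Leaving out 1 array left 1 of these 4 calls, or none. Kdelr3 passed without Sel1L-deficient replicate 3 or without wildtype replicate 1, Derl3 passed without wildtype replicate 2, and the count was 0 without Sel1L-deficient replicates 1 or 2 or wildtype replicate 3. Kdelr3 and Derl3 values did not overlap between groups, and their differences stayed between 1.05 and 1.18 and between 1.59 and 2.06 in these fits. Without replicate 3 of both genotypes neither passed, at 1.11 for Kdelr3 and 1.45 for Derl3. With all arrays and a term for replicate 3, 3 of the 4 passed and Derl3, at 1.78, did not (limma adjusted p = 0.0507). Atf4, the transcription factor translated when PERK is active, differed by -0.22, and Ddit3, its target encoding CHOP, by 0.30, both with overlapping groups (limma adjusted p = 0.649 and 0.667). Groups did not overlap for 8 of the 34 genes (23.5%), 5 higher and 3 lower, where 15.1% of all genes and 19.8% of those above the median level did not. Besides the 4 called genes these were Pdia3 (0.08), P4hb (0.20) and Kdelr2 (0.17), higher on every Sel1L-deficient array, and Derl2 (-0.33), lower on every one. None of these passed the test, and the groups of Pdia3 lay only 0.0118 apart. Herpud1 and Edem1 overlapped, with differences of 0.15 and 0.07.

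**Figure D4:**
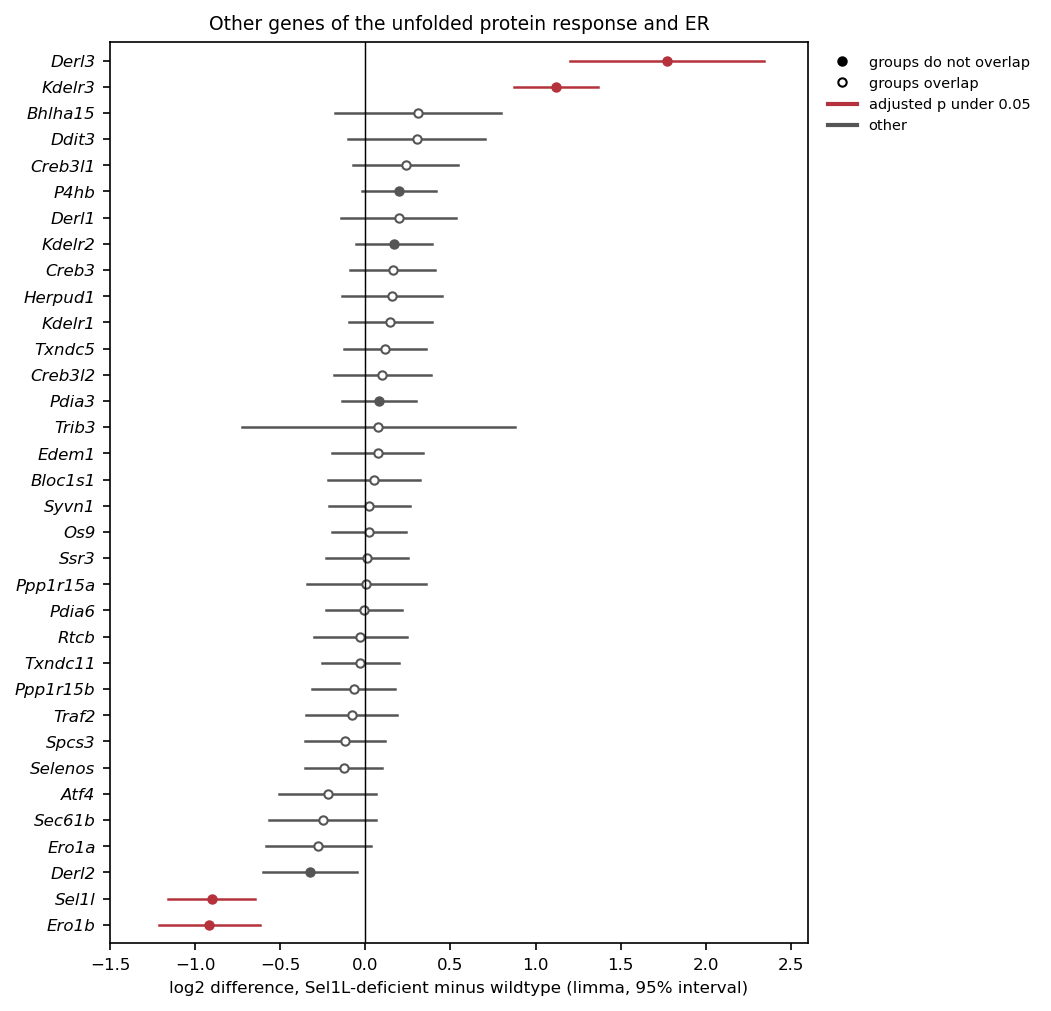
Log2 differences with 95% intervals for 34 other UPR and ER genes, ordered from highest to lowest, with the 4 past an adjusted p of 0.05 in red. Derl3 at 1.78 and Kdelr3 at 1.12 lie above the rest, and Sel1l at -0.90 and Ero1b at -0.92 below it.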

How the data were processed

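The deposited table held 41345 probe sets on 6 arrays. The authors made its values with RMA, per the submitters' processing notes, and the deposited values were taken as log2 because they ran from 0.526 to 13.0. Version, filters and log base are not given in the sources used here. No detection call or batch label was used. RMA can compress large differences, and the number of arrays limits precision.

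Platform annotation gave 1 symbol for 23521 probe sets, several for 1814 and none for 16010. Entrez identifiers of 23328 matched RefSeq of GRCm38.p6, which changed 0 symbols. For each of the 22180 genes the brightest probe set on average over the arrays was used. Sel1L-deficient and wildtype arrays were compared with limma 3.58.1 in R 4.3.3 (lmFit, eBayes, two-sided), with Benjamini-Hochberg adjustment over all genes and a threshold of 0.05. The fit was also run on simulated arrays with independent noise for each gene and no replicate structure. The outcome of that run is not given here.

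Replicate numbers are shared between genotypes, but the labels name no shared litter or day. All 37 members are named, with values on every array for those that a rule on role, p or size picked and for Dnajc3, Dnajc1, Uggt2 and Wfs1, added after their values were seen. The members and lists were chosen with earlier results of these data known. Alternatives were leave-one-out fits, a replicate block, a term for or removal of replicate 3, mean of probe sets, genes above the median level, an intensity trend, and 2 normalizations. Ins1 was not analysed here.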

Additional observations from a re-analysis of the deposited data

How the results depend on the processing

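Over 14 alternatives the count of members past the threshold was 0, except with the intensity trend, where it was 1 (Nucb2, difference 0.38). Members at an unadjusted p under 0.05 numbered 6 to 8 on leaving out 1 array, and 8 to 10 under the others. The member median was -0.0281 to 0.0605 on leaving out 1 array (without wildtype replicates 3 and 2) and 0.01 to 0.03 otherwise. Genes past the threshold over all genes numbered 54, 4 to 29 on leaving out 1 array, 1 with replicates 1 and 2 only, 98 with the intensity trend, and 36 to 64 otherwise. Calls among other UPR genes numbered 0 to 1 on leaving out 1 array, 2 with the replicate block, 3 with a term for replicate 3 (Derl3, at 1.78, did not pass) and 0 with replicates 1 and 2 only. The cause of these changes was not tested, apart from the fewer samples of some fits.

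Of 35 measured members, 26 kept the sign of their difference in every alternative and 9 did not, all with small differences. Without 1 array the range was -0.0586 to 0.131 for Hspa5, -0.047 to 0.08 for Hyou1, -0.118 to 0.0192 for Dnajb9, -0.0855 to 0.0605 for Dnajb11, -0.0145 to 0.092 for Serp1 and -0.102 to 0.021 for Fkbp7. With replicates 1 and 2 only the sign turned for Hspa5 (-0.0671), Hyou1 (-0.0101), Sdf2l1 (-0.0513), Wfs1 (0.0104), Fkbp7 (0.0641) and Atf6 (0.0239), and with quantile normalization for Dnajb11 (0.0026). Same-numbered arrays of the 2 genotypes correlated at 0.105, 0.072 and 0.21 in their deviations from group means, each array best with its own number. Deviations within a group sum to 0, so these correlations are not independent of each other. Both arrays of replicate 3 also shared low Xist and high acinar markers. Whether arrays were paired cannot be told from these correlations, and the design does not say. With the replicate block 0 members and 36 genes passed, and Sel1l (-0.90) and Ero1b (-0.92) did not. Probe sets at low values were not separated from background.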
